A study of Mus musculus with 19 samples.

Results

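Extrachromosomal circular DNA (eccDNA) from DNA repair, replication and recombination genes was examined in the cervical spinal cord of 9 *hSOD1*G93A mice (ALS) and 10 control mice. The genes were chosen by symbol alone: names that begin with Xrcc, Fanc, Brca, Ercc, Parp, Recql, Mre11 or Exo1, names in which Rad, Msh, Mlh, Mcm, Rfc or Orc precedes a digit, the topoisomerases *Top1* to *Top3*, the DNA polymerases, the ligases *Lig1*, *Lig3* and *Lig4*, and *Atm*, *Atr*, *Blm* and *Wrn*. In all, 44 of the 8336 genes with an eccDNA value matched (0.528%). Most of them act in the processes named. The exceptions are *Mcm3ap*, which serves mRNA export, *Ercc6l2*, whose role in repair is less settled, and the PARP genes *Parp4*, *Parp8*, *Parp11* and *Parp12*, whose products attach ADP-ribose to proteins and which are not core repair factors.

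The ALS animals were symptomatic males of a line (B6.Cg-Tg(SOD1*G93A)1Gur/J) in which mutant human *SOD1* is overexpressed constitutively, and were taken at 18 to 21 weeks of age with a severity score of 1 or 2. The controls were C57BL/6J mice of the same sex and age without the transgene. Each animal gave 1 library from whole cervical cord, in which linear DNA of a 400 ng input was digested with exonuclease V for 7 days and rolling circle amplification (RCA) then copied the circles over 48 h. Cells were not sorted, so that more circles per cell and more cells with circles cannot be told apart, and since DNA was measured, expression markers of the tissue were not available to check the labels.

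EccDNAs arise from broken or excised chromosomal DNA whose ends are joined. Homologous recombination repairs a double strand break from an intact copy, end joining ligates the ends directly, and mismatch, base excision and nucleotide excision repair replace damaged stretches of 1 strand. The Fanconi anaemia pathway removes crosslinks between the strands, and the origin recognition complex, the MCM helicase and the polymerases copy the genome in dividing cells. The values here count sequencing reads of eccDNA that carries sequence of these genes. Since the reads were taken after RCA, the values do not give the amount of eccDNA formed. They do not measure their expression or the activity of their products.

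The unit is the produced per gene circle (PpGC), which counts sequencing reads split across the junction of any eccDNA touching a gene and scales that count up by how much shorter the gene is than the longest one. It was given as log2(PpGC + 1), where 0 means that no eccDNA with at least 2 split reads touched the gene. Levels are therefore per length, and the same count gives a higher level in a shorter gene. As an example, 2 split reads gave 4.18 in *Rad51b* (ALS 9) and 8.59 in *Mcm10* (ALS 7). A difference in level between genes can thus come from length alone. Split reads were recovered from the gene lengths, and all 44 genes gave whole numbers, the farthest value lying 0.00158 from one. Where in a gene a circle lies, exon or intron, was not analysed here, and a circle need not span the gene.

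The libraries differed widely in load. Between 694 and 2204 genes carried an eccDNA in an ALS library and between 57 and 723 in a control library. ALS 3 had the most genes of all and Control 1 the most among controls, and the main results that rest on them are also given without them. The sequencing depth of each library was not given, and the split reads on genes summed to 74016 to 391394 in ALS and 3583 to 123387 in controls. The share of a chromosome among an ALS library's genes varied between libraries, with a chi-square of 7.31 per degree of freedom in the median of chromosomes 1 and 10 to 19, against 0.847 in that of chromosomes 2 to 9. Chromosomes 17 (1.42) and 19 (1.99) lay near chromosome 8 (1.95), the highest of 2 to 9, and chromosome X, which holds *Pola1*, had 7.23.

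EccDNA from repair and replication genes was sparse and was seen mostly in ALS animals. No gene passed the test, and with all 19 samples none was seen in enough of them to pass. Of the 44 genes, 31 (70.5%) had an eccDNA in ALS samples only, 6 (13.6%) in control samples only and 7 (15.9%) in both, where the shares over all genes were 75.0%, 10.9% and 14.0%. Of the 6 genes in control samples only, 4 had their value in Control 1 alone, which leaves 2 without that library. The 69 values above 0 fell on ALS 55 times and on controls 14 times. An eccDNA was seen in a single sample for 29 genes (65.9%, against 66.2% of all genes), of which 23 were single ALS samples and 6 single control samples. A further 8 genes were seen in 2 samples, 4 genes in 3 samples and 3 genes in 4 samples, the last being 6.82%, beside 8.04% of all genes seen in at least 4. Both the split between the groups and the recurrence of these genes thus lay close to those of all genes.

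**Figure D1:**
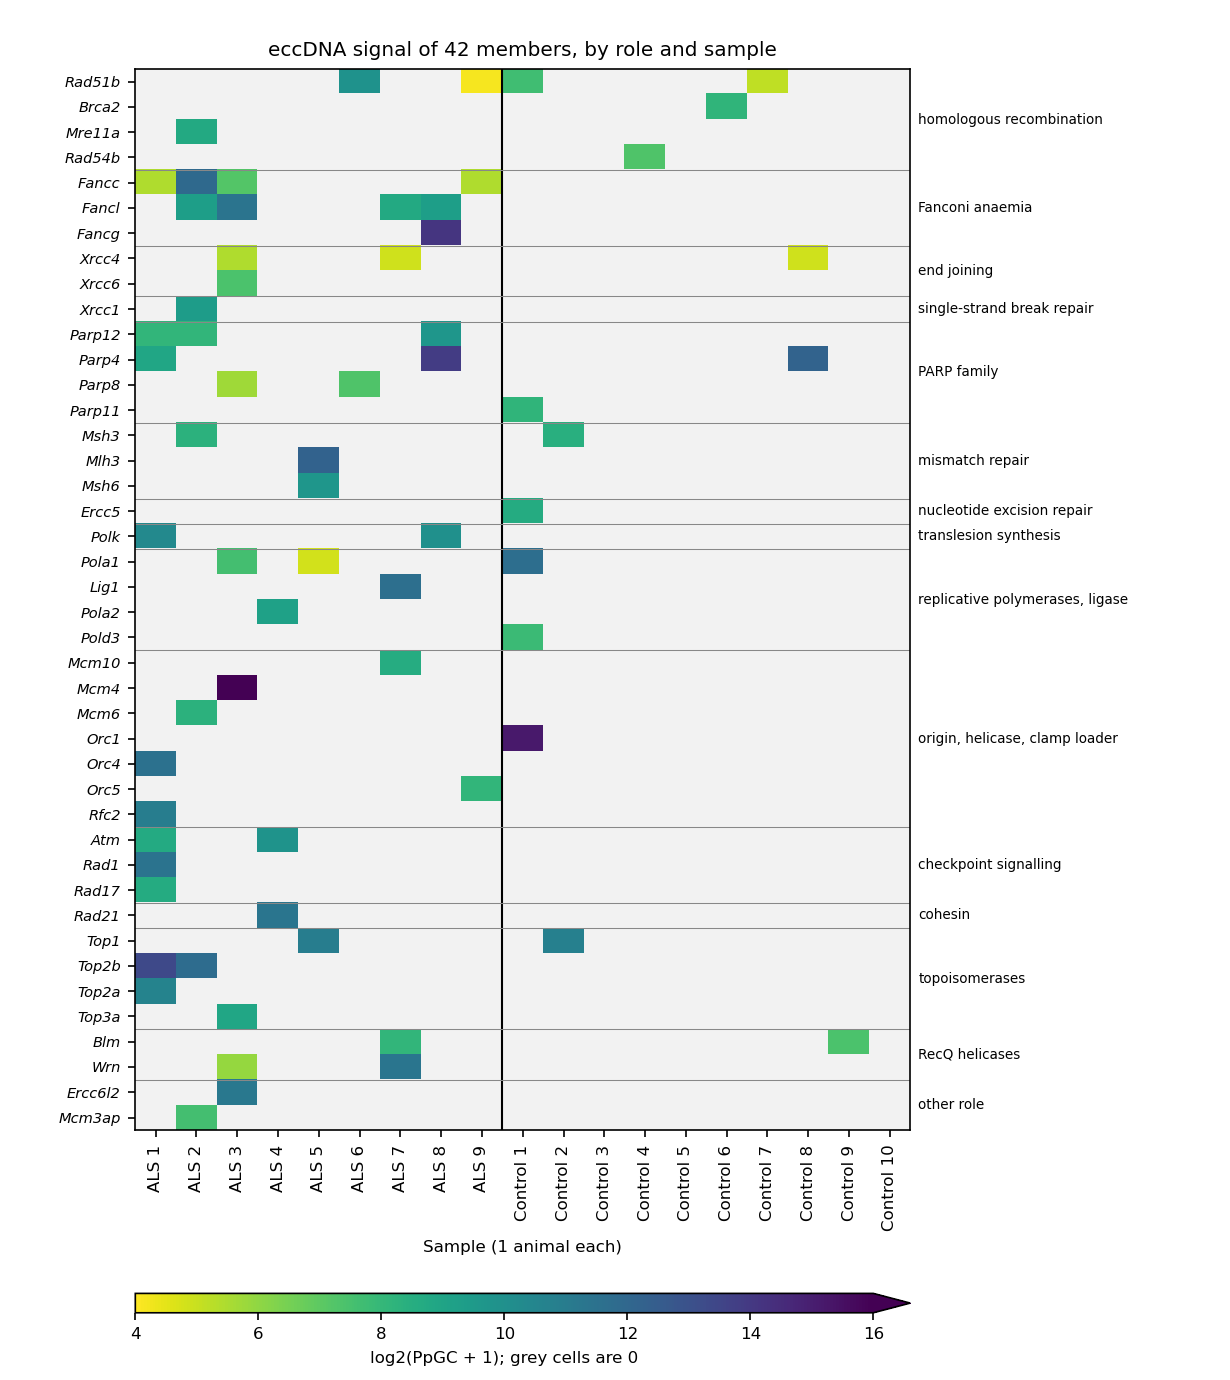
Level of eccDNA, as log2(PpGC + 1), of 42 of the 44 genes (vertical axis, grouped by role) in each of the 9 ALS and 10 control samples (horizontal axis), with grey for 0 and the darkest colour also for values above 16. Of the 67 coloured cells, 53 lie left of the line in ALS samples, and Control 1 holds 6 of the 14 on the right.

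The number of repair and replication genes with an eccDNA was higher on average in ALS. It was 11 in ALS 1, 9 in ALS 2, 11 in ALS 3, 3 in ALS 4, 5 in ALS 5, 2 in ALS 6, 6 in ALS 7, 5 in ALS 8 and 3 in ALS 9, a mean of 6.11 ± 3.44 (SD, n = 9). It was 6 in Control 1, 2 in Control 2, 0 in Control 3, 1 in Control 4, 0 in Control 5, 1 in Control 6, 1 in Control 7, 2 in Control 8, 1 in Control 9 and 0 in Control 10, a mean of 1.40 ± 1.78 (SD, n = 10). The groups overlapped mainly through Control 1: 3 ALS samples lay above every control sample, and 8 lay above every control sample other than Control 1. ALS 6, with 2, tied with Control 2 and Control 8. The ratio of the means was 4.37, beside 5.35 for all genes, and without Control 1 the control mean was 0.889 ± 0.782 (SD, n = 9) and the ratio 6.88, beside 6.84 for all genes. The difference of the means was 4.71, it was 4.10 without ALS 1 or ALS 3 and 5.22 without Control 1. As a sum over chosen genes, this number was not tested.

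Relative to each library's count of genes with a value, the groups had nearly the same share. The repair and replication genes made up 0.446 ± 0.147% (SD, n = 9) of the genes with an eccDNA in an ALS library, from 0.270% in ALS 9 to 0.669% in ALS 2. In controls they made up 0.467 ± 0.367% (SD, n = 10), from 0 in Control 3, Control 5 and Control 10 to 1.06% in Control 6, where it was 1 gene of 94. Both means lie within 1 SD of each other, and they were 0.439% without ALS 3 and 0.426% without Control 1. As a share of the split reads on genes, these genes held a median of 0.109% in ALS (0.00204 to 2.77%) and 0.0132% in controls (0 to 0.581%). The means were 0.418 ± 0.891% (SD, n = 9) and 0.0999 ± 0.185% (SD, n = 10), a difference within the spread, and 0.124% without ALS 3 and 0.0464% without Control 1. ALS 1, ALS 2 and ALS 3 together held 56.4% of the ALS values of these genes, beside 45.5% of those of all genes, and Control 1 held 42.9% of the control values, beside 29.7%.

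**Figure D2:**
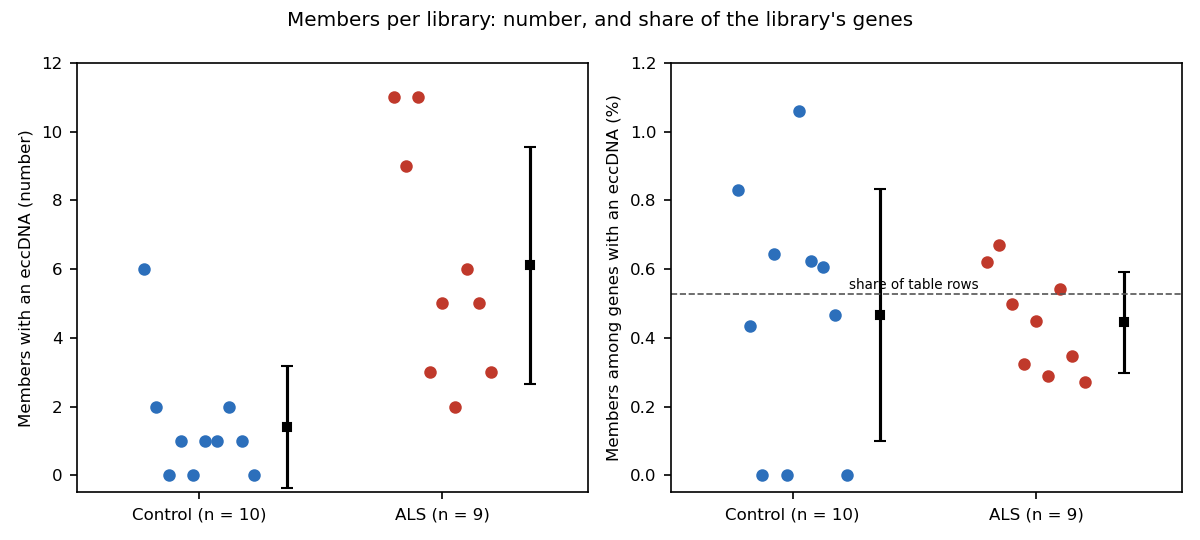
Left, number of the 44 genes with an eccDNA in each library; right, their share of all genes with an eccDNA in that library, in percent; 1 point per sample (blue, 10 controls; red, 9 ALS), squares and bars for mean and SD, and a dashed line at the 0.528% share of table rows. The numbers are higher on average in ALS (6.11 against 1.40), whereas the shares of the groups overlap (0.446% and 0.467%).

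A gene was called higher in ALS where the difference of mean log2 (ALS minus control) was above 1 and the two-sided p of the methods' t-test (here the methods' p) was under 0.01, both limits as the study's methods set them. By this rule 0 of the 44 genes were higher, where 111 of 8336 genes (1.33%) were, and 0 were lower, as over all genes (0.00%). None of the 44 was seen in more than 4 samples. With all 19 samples, neither the methods' p nor an exact permutation p can fall under 0.01 for so few. The count of 0 was thus set by how sparse these genes are, and it does not bear on their levels. The study's own calls are not restated here and need not match these counts. At a methods' p under 0.05, 2 of the 44 genes (4.55%) were higher, *Fancl* and *Fancc*, beside 350 (4.20%) of all genes. A one-sided p of the methods' t-test under 0.01, chosen after seeing the data since the sides are not stated, gave 1 of the 44 genes (*Fancl*), beside 189 (2.27%) of all genes. The exact permutation test at the same limits as the methods' p gave 0 and 2 genes, beside 68 (0.816%) and 310 (3.72%), and limma's moderated test gave 1, *Fancl*, beside 166 of all genes. Adjusted by Benjamini-Hochberg over the whole table, 0 of the 44 genes and 6 of all genes (0.0720%) had a methods' p under 0.05, and the smallest methods' p among the 44 genes was 0.382 and the smallest exact permutation p was 0.581. The mean was higher in ALS for 38 of the 44 genes (86.4%), beside 86.5% of all genes, and the median difference was 1.03, beside 1.19. Over genes seen in at least 3 samples the median difference was 1.31, beside 2.54 for all such genes. With each library's load of genes as covariate the median difference of the 44 genes turned to -0.56 and that of all genes was 0.34, and load and group cannot be told apart in this design. Among the genes named below, the differences of *Fancl*, *Fancc*, *Parp4*, *Pola1*, *Xrcc4*, *Top2b*, *Top1*, *Polk*, *Msh3*, *Stag1*, *Rnaseh2b* and *Zranb3* turned negative with it.

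**Figure D3:**
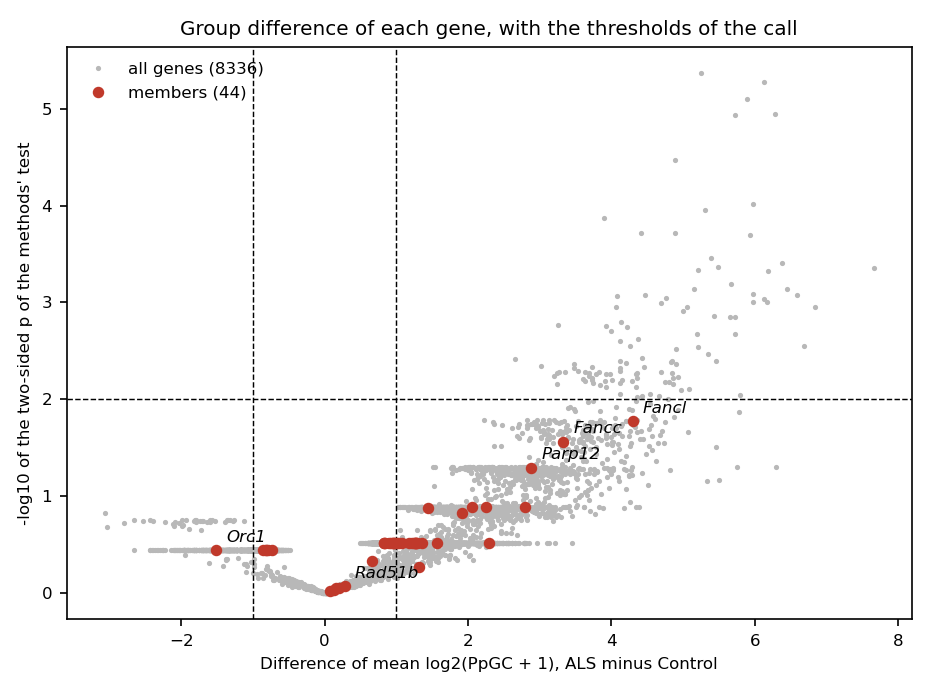
Difference of mean log2(PpGC + 1), ALS minus control (horizontal axis), against -log10 of the methods' p (vertical axis) for all 8336 genes (grey) and the 44 repair and replication genes (red), with dashed lines at the thresholds of the call. All red points lie below the horizontal line, *Fancl* and *Fancc* nearest to it, and the lowest level rows of points are genes seen in 1 sample.

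Among the groups by role, the Fanconi anaemia genes had the most values in ALS and none in controls, a split that was not tested. Of all genes, 75.0% had an eccDNA in ALS samples only. *Fancl*, on chr11:26386135-26471876 of mm10, encodes the ubiquitin ligase that marks the FANCD2 and FANCI proteins at a crosslink. Its level was 9.28 in ALS 2, 11.39 in ALS 3, 8.70 in ALS 7, 9.28 in ALS 8 and 0 in the remaining 5 ALS and all 10 control samples, from 12, 52, 8 and 12 split reads. The mean was 4.29 ± 5.14 (SD, n = 9) in ALS and 0 in controls. Although no control sample had a value, the groups overlapped at 0, and the difference of 4.29 had a methods' p of 0.0169 and an exact permutation p of 0.0325 (two-sided; 0.0650 as 2 times the smaller tail). For a gene with values in ALS samples only, that exact permutation p depends on the number of those samples and not on their levels. With the load of the library as covariate the difference was -0.95. *Fancl* was also the only one of the 44 genes with at least 3 ALS samples at a log2 of 9 or more, which 0.852% of all genes reached. With *Fancc* it made up the 2 genes (4.55%) seen in at least 4 ALS samples and no control sample, beside 2.40% of all genes.

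The call of *Fancl* changed where an ALS library that lacks it was left out, which raises the share of ALS libraries with a value. Without ALS 1, ALS 4, ALS 5, ALS 6 or ALS 9, each of which lacks it, the methods' p was 0.00944 and the gene passed the thresholds. Over all single samples left out, the difference ranged from 3.41 to 4.83 and the exact permutation p from 0.0229 to 0.0824. In ALS 3 the overlapping predicted gene *Gm12713* also had 52 split reads, so that the circle cannot be assigned to either gene alone. Chromosome 11 is one of those whose share varied between ALS libraries, from 1.02% in ALS 5 to 8.17% in ALS 9, and its part in the result was not tested.

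*Fancc*, on chr13:63285043-63497278, encodes a subunit of the Fanconi core complex that holds this ligase. It had 5.42 in ALS 1, 11.91 in ALS 2, 7.20 in ALS 3, 5.42 in ALS 9 and 0 in all other samples. Behind these levels stood 2, 184, 7 and 2 split reads, so that 2 of the 4 samples had it at the lowest count that was kept. The mean in ALS was 3.33 ± 4.37 (SD, n = 9) against 0, with a methods' p of 0.0272 and an exact permutation p of 0.0325. The methods' p was 0.0517 with the replicate block and 0.0564 without ALS 3. The difference was 0.85 (p = 0.139) with a pseudocount of 100 and 1.52 (p = 0.0699) without length scaling. With the load as covariate it was -1.05, and without each sample in turn the exact permutation p ranged from 0.0229 to 0.0824. *Fancg*, another core complex subunit and at 8.16 kb among the shortest of the 44 genes, had 14.13 in ALS 8 from 33 split reads and 0 elsewhere. *Fancl* and *Fancc* were seen together in ALS 2 and ALS 3, the 3 genes in 6 ALS samples in all, and ALS 4, ALS 5 and ALS 6 had none of them.

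The homologous recombination genes had 4 values in controls and 3 in ALS. *Rad51b* encodes a factor that helps the strand exchange recombinase load onto single-stranded DNA, and with 517 kb (chr12:79297282-79814690) it was the longest of the 44 genes. Its level was 9.88 in ALS 6, 4.18 in ALS 9, 7.69 in Control 1 and 5.14 in Control 7, from 110, 2, 24 and 4 split reads, and 0 elsewhere. It was the only one of the 44 genes with an eccDNA in more than 1 control sample. The means of 1.56 ± 3.41 (SD, n = 9) and 1.28 ± 2.77 (SD, n = 10) differed by 0.28, well within the spread (exact permutation p = 0.861).

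The remaining recombination genes had 1 value each. *Brca2*, whose product brings the recombinase to broken DNA, was seen in Control 6 only, with 8.13 from 3 split reads, and its difference was -0.81 (exact permutation p = 1). *Rad54b*, which encodes a DNA translocase of strand exchange, was seen in Control 4 only, with 7.29 from 2 split reads. *Mre11a*, the nuclease that trims broken ends, was seen in ALS 2 only, with 8.73 from 5 split reads. None of these genes separated the groups, and *Brca1* was not among the rows analysed here.

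End joining was represented by 2 genes at low levels. *Xrcc4*, the scaffold of the ligase that seals broken ends, had 5.43 in ALS 3, 4.86 in ALS 7 and 4.86 in Control 8, from 3, 2 and 2 split reads over 316 kb. Its means of 1.14 ± 2.27 (SD, n = 9) and 0.49 ± 1.54 (SD, n = 10) differed by 0.66 (exact permutation p = 0.458). *Xrcc6*, a subunit of the Ku ring that caps broken ends, had 7.42 in ALS 3 from 2 split reads. *Xrcc1*, the scaffold of single-strand break repair, had 9.35 in ALS 2 from 4 split reads.

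The PARP family held 4 genes with 7 values in ALS and 2 in controls. *Parp12*, an interferon-induced member, had 8.12 in ALS 1, 8.12 in ALS 2, 9.70 in ALS 8 and 0 elsewhere, from 2, 2 and 6 split reads. Its difference of 2.88 was the third largest among the 44 genes and did not pass the test (methods' p = 0.0506, exact permutation p = 0.0867). With the load as covariate that difference was 0.048. *Parp4*, whose product sits in the ribonucleoprotein particles called vaults, had 8.89 in ALS 1, 13.88 in ALS 8 and 12.16 in Control 8, from 9, 286 and 87 split reads. The control value lay between the ALS values, and the means of 2.53 ± 5.17 (SD, n = 9) and 1.22 ± 3.85 (SD, n = 10) differed by 1.31 (exact permutation p = 0.597). That difference was -0.10 without ALS 8, 2.53 without Control 8 and -2.35 with the load as covariate. For both ALS values of *Parp4*, the overlapping *Gm16573* had the same number of split reads. *Parp8*, a mono-ADP-ribosyltransferase, had 5.73 in ALS 3 and 7.29 in ALS 6 from 2 and 6 split reads. *Parp11*, another of that kind, had 8.14 in Control 1 only from 3 split reads. *Parp1*, the main sensor of strand breaks in the family, was not among the rows analysed here.

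The mismatch repair genes were seen in few libraries. *Msh6*, a subunit of the sensor of single mispaired bases, had 9.72 in ALS 5 from 3 split reads. *Mlh3*, a subunit of a mismatch repair endonuclease, had 12.23 in ALS 5 from 39 split reads, and neither gene had a value elsewhere. Both were thus seen in the same animal, on chromosomes 17 and 12. *Msh3*, a subunit of the sensor of small loops, had 8.28 in ALS 2 and 8.42 in Control 2 from 10 and 11 split reads, levels that hardly differ, and its group difference was 0.08 (exact permutation p = 1).

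Excision repair and translesion synthesis were represented by few genes. *Ercc5*, the nuclease that cuts downstream of a bulky lesion, had 8.64 in Control 1 only from 3 split reads. *Polk*, a polymerase that copies past damaged bases, had 10.33 in ALS 1 and 9.97 in ALS 8 from 18 and 14 split reads and 0 elsewhere. Its 2 values were close to each other, and its difference of 2.26 was not past the test (exact permutation p = 0.211). It was 1.25 without ALS 1 and 1.29 without ALS 8, and -0.95 with the load as covariate.

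Among the replicative polymerases and the ligase, the highest level was in a control animal. *Pola1*, the catalytic subunit of the polymerase that lays down primers, had 11.69 in Control 1 from 243 split reads, 7.57 in ALS 3 from 14 and 4.81 in ALS 5 from 2. With means of 1.38 ± 2.82 (SD, n = 9) and 1.17 ± 3.70 (SD, n = 10), the difference of 0.21 lay far within the spread (exact permutation p = 0.861), and it was 1.38 without Control 1, -0.57 without ALS 3 and -0.22 without ALS 5. With the load as covariate it was -5.69 (unadjusted p = 0.0304). *Pola2*, the second subunit of that polymerase, had 9.14 in ALS 4 from 3 split reads. *Pold3*, a subunit of the lagging strand polymerase, had 7.82 in Control 1 only from 2 split reads. *Lig1*, which joins the fragments of the lagging strand, had 11.61 in ALS 7 only from 24 split reads.

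The 7 genes of origin licensing, the MCM helicase and the clamp loader were each seen in 1 library, and they included the highest levels of all 44 genes. *Mcm4*, a subunit of the ring helicase, had 20.58 in ALS 3 from 4765 split reads, which ranked 10 among the 2204 genes of that library, and 0 in the remaining 18 samples. This gene alone made up most of the 4900 split reads of repair and replication genes in ALS 3, and its neighbour *Prkdc* had none there. *Orc1*, the largest subunit of the origin recognition complex, had 15.17 in Control 1 from 295 split reads and 0 in all 9 ALS samples, which gave the most negative difference of the 44 genes, -1.52 (exact permutation p = 1). Without Control 1 it was 0, as were those of *Ercc5*, *Parp11* and *Pold3*. No other of the 44 genes lay below -1 (1 gene, 2.27%, beside 6.71% of all genes). The highest level in each group therefore came from a single animal and from different genes.

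Lower levels were seen for the other genes of this group. *Orc4* had 11.50 in ALS 1 from 31 split reads and *Orc5* had 8.12 in ALS 9 from 4, both of them further subunits of the origin complex. *Mcm6*, another subunit of the ring, had 8.31 in ALS 2 from 2 split reads. *Mcm10*, which activates the helicase at the origin, had 8.59 in ALS 7 from 2. *Rfc2*, a subunit of the clamp loader, had 10.93 in ALS 1 from 9.

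The checkpoint genes were seen in ALS samples only, as were 75.0% of all genes, with 4 values from 2 animals. *Atm*, the kinase that signals double strand breaks, had 8.68 in ALS 1 and 9.83 in ALS 4 from 9 and 20 split reads and 0 elsewhere. Its mean was 2.06 ± 4.09 (SD, n = 9) against 0, a difference that 2 of 9 animals carry (exact permutation p = 0.211). *Rad1*, a subunit of the checkpoint clamp, had 11.41 in ALS 1 from 8 split reads, and *Rad17*, which loads that clamp, had 8.62 in ALS 1 from 3. ALS 1 thus had an eccDNA in all 3 genes, on chromosomes 9, 15 and 13. The cohesin subunit *Rad21* had 11.32 in ALS 4 from 17 split reads.

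The topoisomerases had 5 values in ALS and 1 in controls. *Top2b*, the enzyme that passes DNA through a double strand break and is the form found in nondividing cells such as neurons, had 13.37 in ALS 1 and 11.76 in ALS 2 from 168 and 55 split reads and 0 elsewhere. Both levels were high for these genes, whose median level where present was 9.14 in ALS, and the difference of 2.79 did not pass the test (exact permutation p = 0.211). It was 1.47 without ALS 1 and 1.67 without ALS 2, and -0.71 with the load as covariate. *Top2a*, the form of dividing cells, had 10.61 in ALS 1 from 11 split reads. *Top1*, which relaxes DNA through a single-strand nick, had 10.90 in ALS 5 and 10.76 in Control 2 from 33 and 30 split reads, and its groups differed by 0.13 (exact permutation p = 0.737). *Top3a*, which dissolves crossed strands together with BLM, had 8.90 in ALS 3 from 4.

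The RecQ helicases unwind recombination intermediates and stalled forks. *Wrn*, the gene of Werner syndrome, had 5.90 in ALS 3 and 11.32 in ALS 7 from 2 and 87 split reads and 0 elsewhere, and its difference of 1.91 was not past the test (exact permutation p = 0.211). That difference was 0.74 without ALS 7 and 0.33 with the load as covariate. *Blm*, the gene of Bloom syndrome, had 8.11 in ALS 7 and 7.38 in Control 9 from 5 and 3 split reads, with a difference of 0.16 (exact permutation p = 0.737). ALS 7 was the only sample with both. *Ercc6l2* had 11.20 in ALS 3 from 45 split reads. It lies 318 kb from *Fancc*, which had an eccDNA in the same library, and the gene listed between them had none. *Mcm3ap* had 7.57 in ALS 2 from 2 split reads.

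Few split reads stood behind many of these values. Of the 55 values in ALS, 18 (32.7%) rested on 2 or 3 split reads, beside 30.3% of the values of all genes, and of the 14 in controls 7 did, beside 32.0%. The median was 8 split reads in ALS and 3.5 in controls, where it was 7 over all genes in both groups. Where an eccDNA was present, the median level was 9.14 in ALS and 8.13 in controls, and over all genes it was 8.84 and 8.72. The 14 control values come from 7 animals, 6 of them from Control 1, and their lower median was not tested. An overlapping gene also had an eccDNA for 7 of the 69 values, and for 4 of them with equal split reads. Split reads are counted after RCA, and copies of 1 circle cannot be told from several circles.

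**Figure D4:**
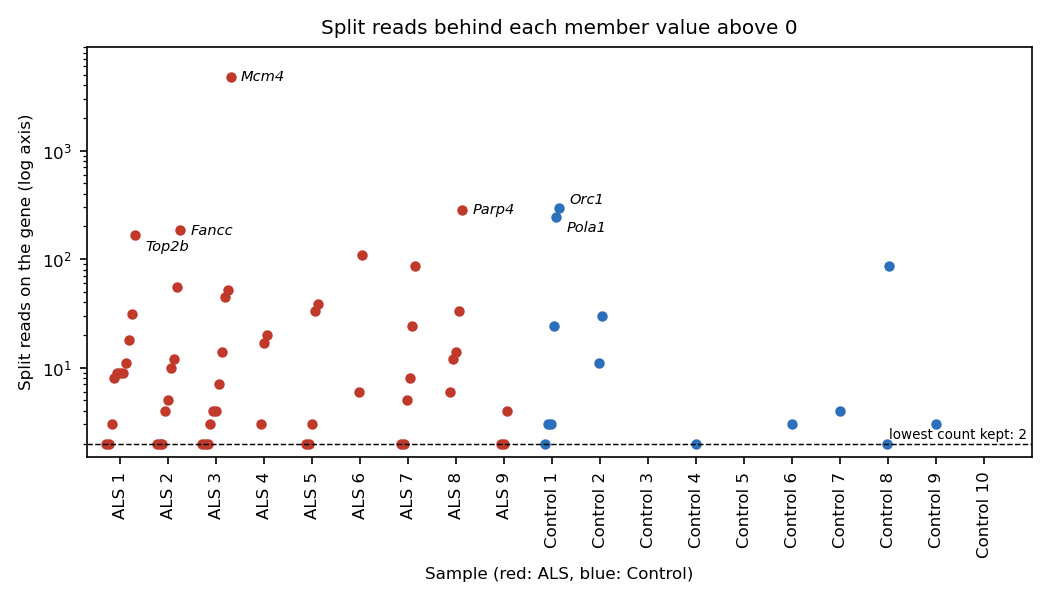
Number of split reads behind each of the 69 values above 0 (vertical log axis) by sample (red, ALS; blue, control), with a dashed line at 2, the lowest count kept, and names for the highest counts. *Mcm4* in ALS 3 stands highest with 4765, *Orc1* and *Pola1* in Control 1 follow among controls, and 25 points lie at 2 or 3.

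The 7 genes seen in 3 or more samples were from 31.9 kb (*Parp12*) to 517 kb (*Rad51b*) long. The 44 genes had a median length of 47.4 kb (6.65 to 517 kb), close to the 49.3 kb of all genes, whereas the genes called higher in ALS had a median of 513 kb. Of the 22 genes of over 10 to 50 kb, 21 were seen in 1 sample only. These genes were seen in 0.864 ALS and 0.227 control samples on average, and all genes of that length in 0.980 and 0.192. The 16 genes of over 50 to 200 kb were seen in 1.50 and 0.312, and all genes of that length in 1.41 and 0.275. Between 200 and 500 kb lay *Fancc*, *Xrcc4* and *Pola1*, seen in 2.67 ALS and 0.667 control samples on average, beside 2.74 and 0.546. In each of these classes the repair and replication genes lay near all genes of their length. *Rad51b*, the only one above 500 kb, was seen in 2 ALS and 2 control samples, beside 5.07 and 1.49 on average for all genes of that class. It lies near the lower edge of its class, which reaches 2961 kb, and was not compared with genes close to its own length. GC content had a median of 42.4% in the 44 genes and 43.3% in all genes.

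**Figure D5:**
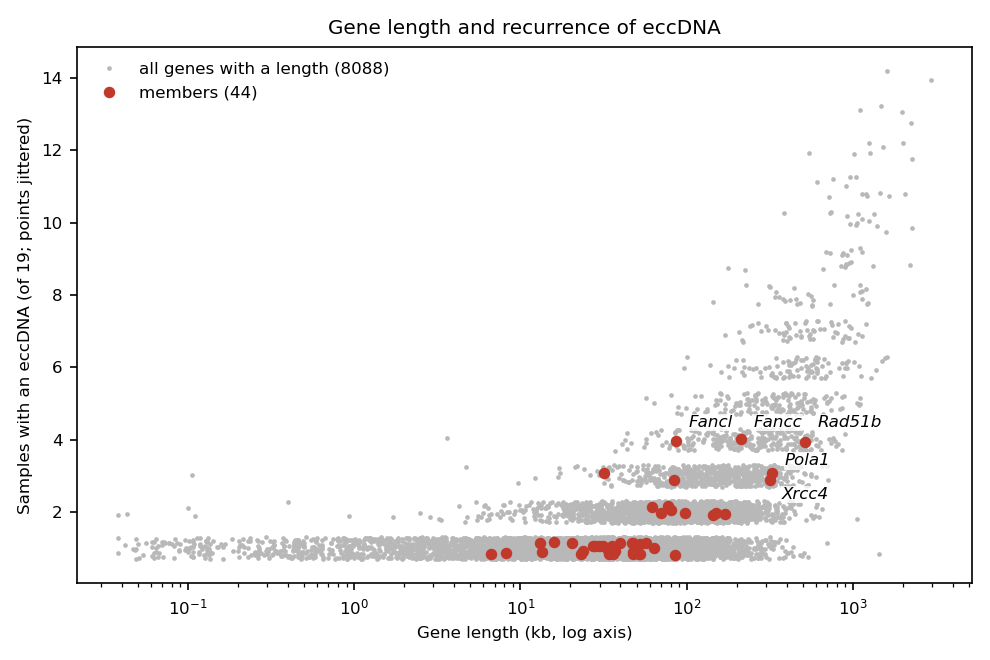
Gene length in kb (horizontal log axis) against the number of the 19 samples with an eccDNA (vertical axis, points jittered) for the 8088 genes with a known length (grey) and the 44 repair and replication genes (red). No red point lies above 4 samples, and *Rad51b*, at 4 samples and 517 kb, is the red point farthest to the right.

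Of the 127 protein-coding genes in the annotation whose names match the choice, 44 (34.6%) were among the rows analysed here, beside 27.5% of all protein-coding genes. The 3 genes between 200 and 500 kb were all present, as were 94.1% of coding genes of that length. Short ones were present more often than coding genes of their length. It was 30.1% against 23.2% of over 10 to 50 kb and 12.5% (2 of 16 genes) against 6.19% up to 10 kb. From 50 to 200 kb it was 47.1% against 62.1%. By role, the share was lowest for translesion synthesis (1 of 5) and nucleotide excision repair (2 of 9) and highest for the topoisomerases (4 of 6). These shares were not tested, and *Atr*, *Lig4* and *Polq* were among the genes without a row here.

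The position of the 44 genes in the genome was counted by chromosome and was not tested. Chromosomes 3 and 18 held 0 of them. Chromosome 13 held 7 of the 44 genes (15.9%), beside 4.96% of all genes placed: *Ercc6l2*, *Fancc*, *Msh3*, *Parp8*, *Polk*, *Rad17* and *Xrcc4*. They gave 13 of the 55 ALS values. The share of this chromosome among the genes of an ALS library was 0.442% in ALS 4 and up to 6.21% in ALS 6, with a median of 5.36%. Neither ALS 4 nor ALS 5, whose share of 5.37% lay at the median, had any of the 7 genes. The 19 genes on chromosomes 2 to 9, where such shares varied less in the median, had 18 values in ALS and 7 in controls, a higher mean in ALS for 14 and a median difference of 0.97, and the 25 genes elsewhere had a median difference of 1.08.

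Other genes of the same pathways, which the choice by name does not reach, were taken from a list of pathway genes. Of 144 genes listed, 52 were among the rows analysed here, and 0 were called higher and 0 lower. None of the 52 was seen in more than 4 samples, too few for a methods' p under 0.01 with all 19 samples. At a methods' p under 0.05, 2 (3.85%) were higher, *Stag1* and *Nsmce2*, beside 4.20% of all genes, and the one-sided p under 0.01 gave 1 (*Stag1*, 1.92%), beside 2.27%. The mean was higher in ALS for 42 of the 52 (80.8%, beside 86.5% of all genes), with a median difference of 1.06 (beside 1.19), and 33 were seen in 1 sample only, as were 66.2% of all genes. *Stag1*, a cohesin subunit, had 7.09 in ALS 1, 8.48 in ALS 2, 6.95 in ALS 3 and 5.65 in ALS 6 and 0 elsewhere, a difference of 3.13 (methods' p = 0.0176, exact permutation p = 0.0325). *Nsmce2*, the SUMO ligase of the SMC5 and SMC6 complex, had 14.09 in ALS 2, 5.32 in ALS 4, 6.88 in ALS 5 and 5.89 in ALS 6 and 0 elsewhere, a difference of 3.58 (methods' p = 0.0340, exact permutation p = 0.0325). Neither was seen in a control sample. *Stag1* passed the thresholds without ALS 4, ALS 5, ALS 7, ALS 8 or ALS 9, each of which lacks it (methods' p = 0.00996). Its difference was -0.23 with the load as covariate. *Nsmce2* had a methods' p of 0.0569 without ALS 4, 0.0652 without ALS 5 and 0.0602 without ALS 6. This p was 0.0609 with the replicate block and 0.0660 with equal totals. The difference of *Nsmce2* was 2.26 without ALS 2 and 6.77 (unadjusted p = 0.0313) with the load as covariate. It was 1.08 (methods' p = 0.176) with a pseudocount of 100 and 1.80 (methods' p = 0.0913) without length scaling.

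The other pathway genes named by the same rule did not separate the groups. *Zranb3*, which remodels stalled forks, had 9.29 in ALS 3, 12.56 in ALS 5 and 7.90 in ALS 8 (exact permutation p = 0.0867). *Rnaseh2b*, a subunit of the enzyme that removes ribonucleotides from DNA, had 8.11 in ALS 1, 17.59 in ALS 8 and 8.96 in Control 10 (exact permutation p = 0.458). *Prkdc*, the kinase of end joining, had 6.46 in ALS 1, 10.99 in Control 2 and 6.05 in Control 8, a difference of -0.99 (exact permutation p = 0.737). Of the 12 structure-specific nucleases listed, which cut branched DNA, 0 were among the rows analysed here, beside 27.5% of all protein-coding genes. Their lengths were not compared with those of other genes, and the count was not tested.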

How the data were processed

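Cervical spinal cord of 9 ALS and 10 control mice was analysed, with 1 library per animal, so that p-values measure the spread between animals. The authors mapped split reads to mm10 with Circle_Finder, merged nearby eccDNAs, removed those with fewer than 2 split reads, and intersected them with GENCODE genes using bedtools; the release is not given in the sources used here. The deposited values are log2(PpGC + 1), scaled by the authors for gene length and not between samples, and were used as such. No column (0) belonged to other samples.

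The genes, lists and tests were chosen with earlier results of these data known. Names were placed with GENCODE M21 (GRCm38), which placed 8088 of 8336, and gave whole split reads for 98.9% of values above 0, within 0.02. All rows were tested: a difference above 1 with a two-sided Student p under 0.01, an exact permutation test over all 92378 assignments of the 19 samples to groups of 9 and 10 (the share with an absolute difference at least as large), and Benjamini-Hochberg adjustment. For a gene with values in ALS samples only, or in a single sample, the exact permutation p does not depend on the levels. Whether the study's own Student test was one-sided or two-sided is not stated. Sequencing depth, RCA and the limit of 2 split reads bound the precision.

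The genes named were those called, the 15 seen in the most samples (ties by mean), the 5 with the most negative difference, those in at least 2 control samples, 10 widely known genes where present, and from the pathway list those called and the 5 seen in the most samples. The other genes of the 44 are given with their values, except 2 whose results are not reported here. Alternatives were limma, exact or adjusted p, a p under 0.05, a pseudocount of 100, no length scaling, equal totals, the number of genes with an eccDNA as covariate, a minimum of 3 samples, presence alone, a replicate block and leaving out each sample. The restriction to chromosomes 2 to 9, a one-sided p, and the exact p as 2 times the smaller tail or under 0.05 were chosen after seeing the data. So was leaving out values with as many split reads as an overlapping gene. The tests were checked on simulated data in which changed genes had values in most ALS samples. That check does not cover genes as sparse as the 44. Software comprised limma 3.58.1 in R 4.3.3 and, in Python 3.11.15, SciPy 1.17.1, pandas 2.3.3, matplotlib 3.10.9 and NumPy 2.4.6.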

Additional observations from a re-analysis of the deposited data

Results flagged for a closer look

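In several groups 1 sample stood far from the others, by the gap to its nearest neighbour over the range of the group (Dixon's test). For normally distributed values chance gives such a sample in about 1 of 20 groups. That rate does not apply here, where many values are 0. Of 40 groups of values tested, 22 had such a sample, and in 16 of them all other samples were at 0, so that any value above 0 stands apart there.

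Among controls, Control 1 stood apart in the number of repair and replication genes with an eccDNA (6), in their split reads (570), and in *Orc1* (15.17), *Pola1* (11.69), *Ercc5* (8.64), *Parp11* (8.14) and *Pold3* (7.82). The other control samples that stood apart were Control 2 for *Top1* (10.76) and *Msh3* (8.42), Control 6 for *Brca2* (8.13), Control 8 for *Parp4* (12.16) and *Xrcc4* (4.86), Control 9 for *Blm* (7.38) and Control 10 for *Rnaseh2b* (8.96).

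Among ALS samples, ALS 3 stood apart in the split reads of these genes (4900, of which *Mcm4* held 4765). ALS 6 stood apart for *Rad51b* (9.88), ALS 5 for *Top1* (10.90), ALS 2 for *Msh3* (8.28) and *Nsmce2* (14.09), ALS 7 for *Blm* (8.11), ALS 8 for *Rnaseh2b* (17.59) and ALS 1 for *Prkdc* (6.46). Values of genes are log2(PpGC + 1).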

How the results depend on the processing

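No setting called a gene of the 44 lower, and the count called higher was 0 in all settings but these: limma (unadjusted p = 0.00684) and a one-sided p under 0.01 called 1 (*Fancl*), and a Student p or an exact permutation p under 0.05 called 2. The pathway list had 2 under either of the last settings and 1 with the one-sided p. Without each sample in turn, each list had 0 to 1. Over all genes, the count of 111 ranged from 85 to 133 without each sample in turn and was 68 with the exact permutation p under 0.01, 64 with 2 times the smaller tail, 310 with the exact permutation p under 0.05, 350 with a Student p under 0.05, 189 with a one-sided p under 0.01, 6 after Benjamini-Hochberg adjustment, 9 with a pseudocount of 100, 71 without length scaling, 60 with equal totals, 57 with presence alone, 54 with the replicate block and 64 on chromosomes 2 to 9. Replicate numbers did not pair the samples (correlations of deviations from -0.02 to 0.02 over 9 pairs, the own number highest in 2), and the block called 0 of the 44 genes.

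With the load of the library as covariate, 110 genes were called, 26 higher and 84 lower, and the median difference of the 44 genes was -0.56, beside 0.34 over all genes. The differences of *Fancl* (-0.95), *Fancc* (-1.05), *Parp4* (-2.35), *Pola1* (-5.69, unadjusted p = 0.0304), *Xrcc4* (-1.57), *Top2b* (-0.71), *Top1* (-0.025), *Polk* (-0.95), *Msh3* (-1.05), *Stag1* (-0.23), *Rnaseh2b* (-0.72) and *Zranb3* (-0.33) turned negative as well. Under the same setting the differences of *Nsmce2* (6.77, unadjusted p = 0.0313), *Rad51b* (2.09) and *Blm* (1.09) grew by over 1.5 times, as did, below 0, those of *Orc1* (-5.23), *Prkdc* (-4.04), *Ercc5* (-2.98), *Parp11* (-2.81) and *Pold3* (-2.70), and those of *Parp12* (0.048), *Wrn* (0.33) and *Brca2* (-0.19) shrank by as much. The load was higher in ALS, with ranges that meet at ALS 6 and Control 1, and load and group cannot be told apart. Equal totals turned *Pola1* (-0.32), *Top1* (-0.68), *Msh3* (-0.054) and *Blm* (-0.34). A pseudocount of 100 (-0.30) and no length scaling (-0.18) turned *Pola1*, and the block turned *Msh3* (-0.015). Leaving out single samples moved *Rad51b* from -0.76 to 0.99, *Parp4* from -0.10 to 2.53, *Pola1* from -0.57 to 1.38, *Top1* from -1.08 to 1.21, *Msh3* from -0.84 to 0.92, *Blm* from -0.74 to 0.90 and *Prkdc* from -1.70 to 0.046. Without a change of sign, it moved by over 1.5 times *Rnaseh2b* (0.12 to 2.86), *Xrcc4* (0.12 to 1.14), *Wrn* (0.74 to 2.15), *Parp8* (0.72 to 1.63), *Polk* (1.25 to 2.54), *Top2b* (1.47 to 3.14), *Atm* (1.08 to 2.31), *Nsmce2* (2.26 to 4.02) and *Zranb3* (2.15 to 3.72), and *Orc1*, *Ercc5*, *Parp11*, *Brca2* and *Pold3* went to 0 without their only sample. None of these differences had passed the test, and the causes were not tested.

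The difference in the number of these genes per library (4.71) was 1.61 over genes seen in at least 3 samples and 1.30 on chromosomes 2 to 9, where fewer genes were counted, and 4.10 to 5.23 without each sample in turn. The median difference of 1.03 was 1.03 to 1.16 without each sample in turn, 0.29 with a pseudocount of 100 (0.39 over all genes), 0.26 without length scaling (0.35) and 1.31 over genes seen in at least 3 samples (2.54). In all, 496 of 540 values of the 20 named genes under the alternatives kept their direction and side of the threshold. None of these genes had passed the test, and most samples left out were at 0 for them. This count therefore says little about stability. Of the 69 values, 25 rest on 2 or 3 split reads, near the lowest count kept, and 0 in a library cannot be told apart from a count under that limit.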
